A study of Rattus norvegicus with 3 samples.

Results

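The genes described here encode the enzymes that carry glucose carbon from hexokinase to the citric acid cycle, together with the kinases that regulate pyruvate dehydrogenase. They were chosen by name from a list of 40 genes, and 37 of these had at least 1 probe set annotated to that gene alone. The whole series measured 14217 genes in that way. Pkm, Dlat and Fh, the other 3 listed genes, had no such probe set and were not analysed here. Each gene was represented by the probe set with the highest mean over array b and the 7-day array (arrays named below). The measured genes fell into a glycolysis group of 16 (of 17 listed), which included lactate dehydrogenase, and a pyruvate and citric acid cycle group of 21 (of 23 listed). RNA came from tissue labelled adrenal medulla of rats kept in the cold, 2 arrays (array a and array b) standing for 1 day and a single array for 7 days. The labels used here give no strain, sex, age or temperature, and no array of rats outside the cold was analysed here. They also do not say whether the RNA on arrays a and b had different animals as its source, and the spread of these arrays could be technical.

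Glycolysis splits glucose into pyruvate in the cytosol, with a net gain of ATP and NADH. Pyruvate is then either reduced to lactate by lactate dehydrogenase or imported into mitochondria, where the pyruvate dehydrogenase complex turns it into acetyl-CoA for the citric acid cycle. Chromaffin cells, which make up most of the adrenal medulla, use this ATP to load catecholamines into granules, to pump ions and to drive secretion.

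Array a stood apart from the other arrays, so the 7-day array is also described against array b alone. The differences of array a from array b and the limma fit need array a and have no version without it. The Spearman correlation across gene probe sets was 0.939 between array b and the 7-day array, and 0.664 between the 1-day arrays. The deposited intensities share 1 trimmed mean on all arrays, yet the median gene probe set read 1583 on array a, 593 on array b and 675 on the 7-day array. Dim probe sets thus read high on array a. The 11 measured chromaffin cell markers, of 12 fixed, summed to 2393250, 1048520 and 1206080 on array a, array b and the 7-day array, and 6 of them read higher at 7 days than on array b. The sum of array a rests on a few bright genes such as Chgb, Chga and Dbh, and 7 of the 11 read lower on array a than on array b, with a median of -0.69. All 8 measured adrenal cortex markers, of 10 fixed, read higher on the 7-day array than on array b. Their median log2 difference was 0.38, and their summed intensity was 1443190, 840021 and 1096340 in the same order. Of all genes that passed the filter on low intensity 48.5% read higher at 7 days, and of all genes with no filter 53.8%. Of these 8 markers 7 passed that filter. The dim Cyp17a1, which had the highest difference (0.72), did not, so its value is limited by signal. On array a, 3 of these 8 read lower than on array b, among them Cyp11b1 at -4.05 and Scarb1 at -3.51, and 5 read higher. Markers of skeletal muscle, fat and liver were dim, with summed intensities of 6103, 3528 and 4853 for array a. Array b had 1715, 1161 and 1969, and the 7-day array 2201, 568 and 2609. The sums of these lists were thus highest on array a, as were those of white blood cell and endothelial markers. The red blood cell sums were lowest on array a, at 7714.5, 28129 and 29499 on array a, array b and the 7-day array. They rest on Hbb, the only 1 of 3 such genes lower on array a than on array b. Schwann and sustentacular cell markers also summed lowest on array a, at 3754, 4102 and 5418. The part of the tissue's cell makeup in the differences below was not tested, and in whole tissue fewer cells of a type and less RNA per cell cannot be told apart.

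At 7 days both groups read almost as on array b. On the scale of log2(intensity + 16), used for all differences below, the median difference of the 7-day array from array b was 0.06 in the glycolysis group and 0.06 in the pyruvate and citric acid cycle group, against -0.01 over all 9252 genes whose probe set passed the filter on low intensity (kept genes). With each array centred on its median instead, the values were -0.12, -0.12 and -0.19. On array a the groups parted. There the median difference from array b was -0.36 in the glycolysis group and -1.54 in the pyruvate and citric acid cycle group, a gap of -1.17, against -0.10 over all kept genes. These are differences between single arrays, and the second of them is between arrays of the same label, so they describe the arrays and carry no test.

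**Figure D1:**
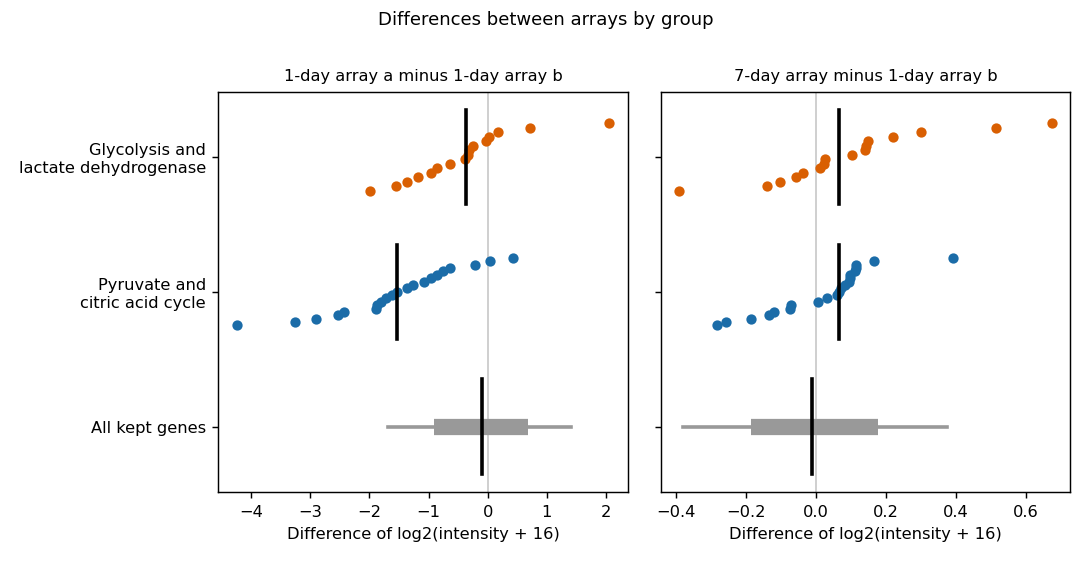
Difference of log2(intensity + 16) from array b, for array a (left) and for the 7-day array (right), on axes of different width; each point is a gene, black lines are medians, and for all 9252 kept genes the bar spans the middle 50% and the thin line the 10th to 90th percentile. On the left the pyruvate and citric acid cycle genes lie around -1.54 and the glycolysis genes around -0.36, and on the right both groups centre on 0.06.

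Counted gene by gene, 14 of 21 pyruvate and citric acid cycle genes read at least 2-fold lower on array a than on array b (66.7%), and 4 of 16 in the glycolysis group (25%). Over all kept genes the share was 22.9%, and over genes in the brightest 25% of probe sets it was 27.0%. The glycolysis count was thus near the background, and the other group's count was above it. The gap of medians became -1.06 with quantile normalisation, -0.87 with a loess trend on intensity removed, and -0.77 where all probe sets of a gene were averaged. Of the 37 genes, 0 differed 2-fold between the 7-day array and array b, where 1.29% of all kept genes did.

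**Figure D2:**
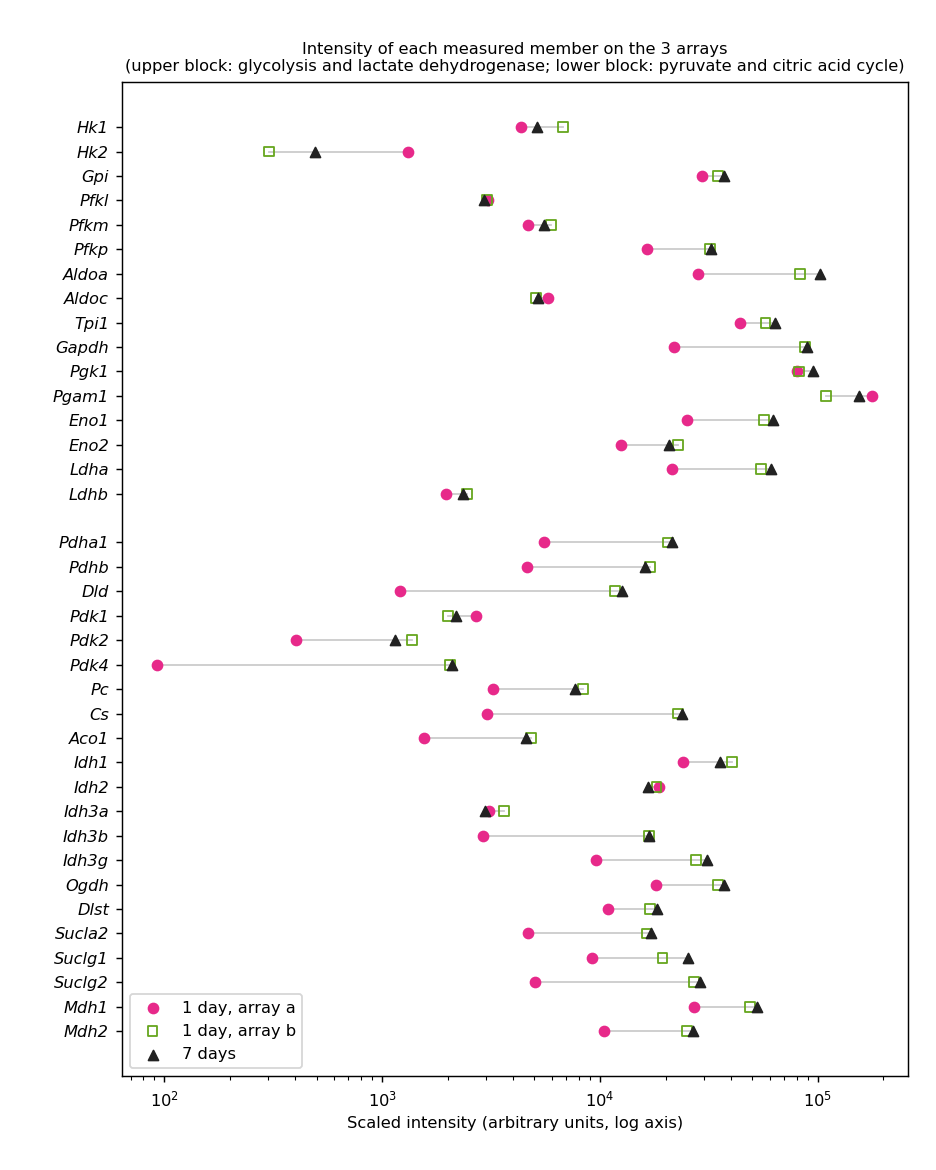
Scaled intensity (log axis) of the 37 measured genes on array a (circles), array b (open squares) and the 7-day array (triangles), with a grey line over the range. In most pyruvate and citric acid cycle genes the circle lies well to the left of the other symbols, which nearly coincide; levels of different genes are not comparable, since probe sets differ in brightness.

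Hexokinase commits glucose to the cell by phosphorylating it. Hk1, the main form of brain, read 4333 on array a, 6766 on array b and 5154 on the 7-day array. The 7-day value lay between the 1-day values, 0.39 below array b on the log2 scale, and this was the lowest difference from array b among all 37 genes. The other Hk1 probe sets were dim, and all read below array b at 7 days, at -0.05, -1.27 and -0.65 for the 3′, middle and 5′ controls and at -1.15 for a set below the filter. On array a these controls read 228, 206 and 1157, against 1099, 308 and 391 on array b, so the 5′ control was higher on array a and the 3′ control lower. Hk2, the insulin-regulated form of muscle and fat, read 1307, 303 and 492 in that order. It was dim, did not pass the filter on low intensity, and lay 0.67 above array b and 1.38 below array a.

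Gpi, which interconverts glucose and fructose phosphates, stayed within a narrow range of 29309, 34709.5 and 37243 on array a, array b and the 7-day array. Phosphofructokinase, the main control point of the pathway, has 3 subunit genes. Pfkl, the liver-type subunit, read 3061.5, 3023 and 2944, nearly equal on all arrays. Pfkm, the muscle-type subunit, read 4693, 5943 and 5534. Pfkp, the platelet-type subunit, read 16429.9, 31961 and 32191, so it was low on array a alone.

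Aldolase splits the 6-carbon sugar. Aldoa, the widely expressed form, read 28259.5 on array a, 83015 on array b and 102167 on the 7-day array. The 7-day array was the highest, 0.30 above array b and 1.85 above array a. Aldoc, the brain form, read 5776, 5093 and 5185, a spread smaller than that of Aldoa, and Tpi1, which interconverts the products, read 43993, 57482 and 63286.5.

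Gapdh makes the first NADH of the pathway, and its own probe sets are controls placed along the transcript. At the 3′ end they read 21952 on array a, 87508 on array b and 88832 on the 7-day array. The middle set read 8315, 61517 and 60084, and the 5′ set 4376, 48910 and 47531. Array b exceeded array a by 3.99, 7.40 and 11.2 times at the 3′ end, the middle and the 5′ end, so for Gapdh the shortfall of array a grew with distance from the 3′ end, unlike the dim Hk1 controls above. Divided by its 5′ set, the 3′ set gave 5.02 on array a, 1.79 on array b and 1.87 at 7 days. The 7-day array differed from array b by 0.02, -0.03 and -0.04 on the log2 scale at these places. Where along the transcript the probe sets of the other genes lie was not analysed here, so the part of probe position in their values was not tested.

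**Figure D3:**
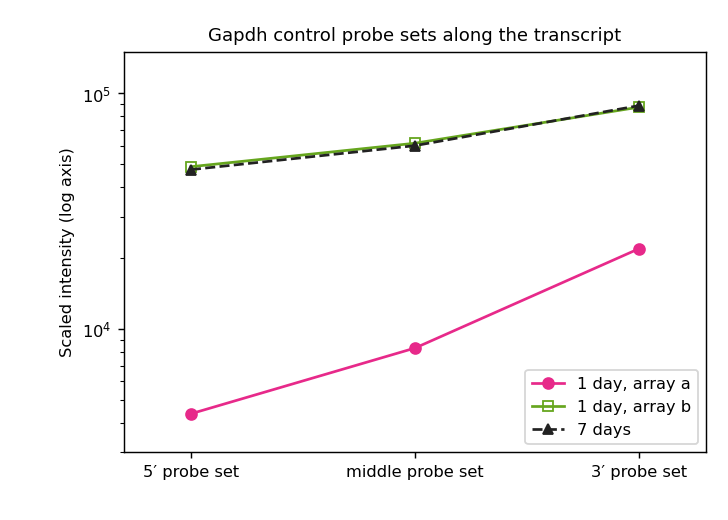
Scaled intensity (log axis) of the 3 Gapdh control probe sets, ordered from the 5′ to the 3′ end of the transcript, on each array. The lines of array b and of 7 days overlie each other, and that of array a is lower and steeper, from 4376 at the 5′ end to 21952 at the 3′ end.

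Pgk1 and Pgam1 carry out the next steps. Pgk1, the first enzyme of the pathway to make ATP, read 80355 on array a, 81635 on array b and 95133.5 on the 7-day array. On this probe set the 1-day arrays lay close together, and the 7-day value was 0.22 above array b. A second kept probe set of Pgk1 read 13206.5, 38303.6 and 49497, so it was low on array a. Pgam1, the phosphoglycerate mutase of most tissues, read 177617, 108524 and 154992. The 7-day value fell between the 1-day values and was 0.51 above array b, the highest difference among genes that passed the filter. Of all kept genes, 5.21% lay at least that far above array b.

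Enolase forms phosphoenolpyruvate. Eno1, the widespread form, read 25103 on array a, 56558.5 on array b and 62436 on the 7-day array. Eno2, the form of neurons and neuroendocrine cells and a marker of chromaffin cells, read 12541, 22772 and 20648. The isoenzymes took opposite signs against array b, 0.14 for Eno1 and -0.14 for Eno2, though Eno1 turned to -0.04 with each array centred on its median.

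Lactate dehydrogenase interconverts pyruvate and lactate. Ldha, the subunit that favours lactate formation, read 21333 on array a, 54883 on array b and 60839.5 on the 7-day array. Ldhb, the heart-type subunit, read 1972, 2458 and 2361. Ldha was 0.15 above array b and Ldhb 0.06 below it, and Ldha turned to -0.03 with median centring. On array a, Ldha was 1.36 below array b and Ldhb 0.32 below it.

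The pyruvate dehydrogenase complex feeds acetyl-CoA into the citric acid cycle. Pdha1, the alpha subunit of its E1, read 5538 on array a, 20557 on array b and 21496 at 7 days. Pdhb, the beta subunit of E1, read 4603, 16935 and 16111.5 in that order. Both were thus lower on array a by nearly the same amount, -1.89 and -1.88. Dld, the E3 subunit shared with the 2-oxoglutarate dehydrogenase complex, read 1202, 11679 and 12645, which put array b 9.72 times above array a. The 7-day array differed from array b by 0.06, -0.07 and 0.11 for the 3 subunits, and Pdha1 and Dld also turned below 0 with median centring.

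Pyruvate dehydrogenase kinases switch the complex off by phosphorylating E1. Pdk1, a target of the hypoxia factor HIF, read 2696 on array a, 2006 on array b and 2171 on the 7-day array. Pdk2, the kinase of most tissues, read 402, 1367 and 1139.85. Pdk4, which fasting and glucocorticoids induce, read 92.9, 2042 and 2088. Pdk4 had the widest gap between the 1-day arrays of all 37 genes (-4.24), and Pdk1 was higher on array a (0.42). At 7 days Pdk4 was 0.03 above array b (-0.15 with median centring) and Pdk2 0.26 below it. A second probe set of Pdk4, below the filter, read 856, 327 and 704, so it went the other way on array a. Pc, pyruvate carboxylase, which refills the cycle with oxaloacetate, read 3221, 8342 and 7668.

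Citrate synthase opens the cycle. Cs read 3016 on array a, 22792 on array b and 23729.5 on the 7-day array, with array b 7.56 times above array a. Aco1, the cytosolic aconitase that doubles as an iron sensor, read 1562, 4824 and 4577. Both had a 7-day value within 0.08 of array b on the log2 scale.

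Isocitrate dehydrogenase comes as NADP-linked enzymes and as an NAD-linked enzyme of the cycle built of 3 kinds of subunit. Idh1, the cytosolic NADP form, read 23922 on array a, 40328 on array b and 35457 on the 7-day array. Idh2, the mitochondrial NADP form, read 18599, 18161 and 16538, so it was nearly equal at 1 day and lowest at 7 days. Among the subunits of the NAD form, Idh3a, the catalytic one, read 3089, 3611 and 2961. Idh3b (listed as Idh3B) read 2907, 16806.5 and 16870.5, and Idh3g 9552, 27715 and 31083. The subunits of this single enzyme thus differed on array a, at -0.22, -2.53 and -1.54 from array b in that order. At 7 days Idh3a was 0.28 below array b, Idh3b 0.01 above and Idh3g 0.17 above, the latter pair below 0 with median centring. Idh1, Idh2 and Idh3a read below array b under 3 other scalings and 2 other pseudocounts, though median centring lowered all genes alike.

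The 2-oxoglutarate dehydrogenase complex was represented by Ogdh, its E1, and Dlst, its E2. Ogdh read 18031 on array a, 34964 on array b and 37279 at 7 days. Dlst read 10889, 16999.9 and 18187. On array a they were 0.95 and 0.64 below array b, a smaller gap than that of Dld, the subunit the complexes share.

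Succinate-CoA ligase makes ATP or GTP in the cycle, depending on its beta subunit. Suclg1, the alpha subunit common to both forms, read 9165 on array a, 19366 on array b and 25379.9 on the 7-day array. Sucla2, the ATP-linked beta subunit, read 4691, 16355 and 17163, and Suclg2, the GTP-linked one, 5024, 27108.5 and 28680. Suclg1 was 0.39 above array b at 7 days, the highest of its group, and 9.11% of kept genes lay at least that far above. Its beta subunits differed from array b by 0.07 and 0.08, or by -0.11 and -0.10 with median centring.

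Malate dehydrogenase closes the cycle and, with its cytosolic form, shuttles NADH into mitochondria. Mdh1, the cytosolic form, read 26889 on array a, 48763.5 on array b and 52640.2 on the 7-day array. Mdh2, the mitochondrial form, read 10381, 25028 and 26737. Both followed the common order of the list, lowest on array a and highest at 7 days. The 3 cytosolic enzymes in this group, Aco1, Idh1 and Mdh1, had a median of -0.86 on array a relative to array b, against -1.63 for the other 18 genes. Aco1 itself lay at -1.62. The median of the 3 is the value of Mdh1, whose second kept probe set lay at -1.38.

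Whether these genes differ with the length of cold exposure was tested over all 3 arrays. Limma on all 15521 kept probe sets called 0 of the 35 listed genes in the fit at an adjusted p under 0.05, and 0 had an unadjusted p under 0.05. It called 0% of all kept probe sets, of which 70 had an unadjusted p under 0.05. The lowest unadjusted p among the listed genes was 0.0587, for Dld, with a difference of 1.75 ± 0.92 (SE from limma) and an adjusted p of 1.00 with Benjamini-Hochberg adjustment. That difference was 3.38 against array a and 0.11 against array b. The SE of 0.92 is not the spread of Dld itself, whose array a lay at -3.26 from array b. The prior degrees of freedom were infinite, so the SE is the spread fitted over kept probe sets at that intensity. Each probe set added 1 residual degree of freedom, from the 1-day pair. The 7-day array has no replicate, so the fit had to take its spread as equal to that at 1 day.

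By position, 21 of the 37 genes were highest at 7 days, 8 of them in the glycolysis group and 13 in the other, and 3 were lowest at 7 days (Pfkl, Idh2 and Idh3a). Over all kept genes 25.5% were highest and 24.1% lowest at 7 days. Without array a, 25 of 37 read above array b, where 48.5% of all kept genes did. The counts of genes highest at 7 days moved with the scaling. With each array centred on its median they were 3 and 1 in the 2 groups, against 20.2% of all kept genes. With that centring 5 of the 37 genes read above array b, against 24.3% of all kept genes, and it moved the median of all kept genes from -0.01 to -0.19 relative to array b. Against the average of arrays a and b, the median difference was 0.23 in the glycolysis group and 0.73 in the pyruvate and citric acid cycle group, and it became 0.06 in both without array a. Without array b it was 0.30 and 1.47, and the gap between the groups went from 0.50 to 1.17.

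Few directions were the same on the deposited scale and under 3 other scalings and 2 other pseudocounts. Hk2, Aldoa, Pgk1, Pgam1 and Suclg1 read above array b at 7 days under each of them. Another 11 genes read below it under each, namely Hk1, Pfkm, Eno2, Ldhb, Pdhb, Pdk2, Pc, Aco1, Idh1, Idh2 and Idh3a. The other 21 took both signs, and on the deposited scale each of these sat within 0.17 of array b. Median centring lowered each gene by a like amount, so it could turn positive signs but not negative ones. The pseudocounts moved most values little. A small negative value such as that of Ldhb (-0.06) thus kept its sign, and the larger positive one of Idh3g (0.17) did not. The lengths of both lists depend on that shift. Where all probe sets of a gene were averaged, Pfkm, Pdk2 and Idh1 turned positive. For Pgam1 the range was 0.33 to 0.51, for Suclg1 0.21 to 0.39 and for Hk1 -0.57 to -0.31. The differences have no replicate at 7 days to be set against, and among all kept genes the SD of the same difference was 0.33.

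**Figure D4:**
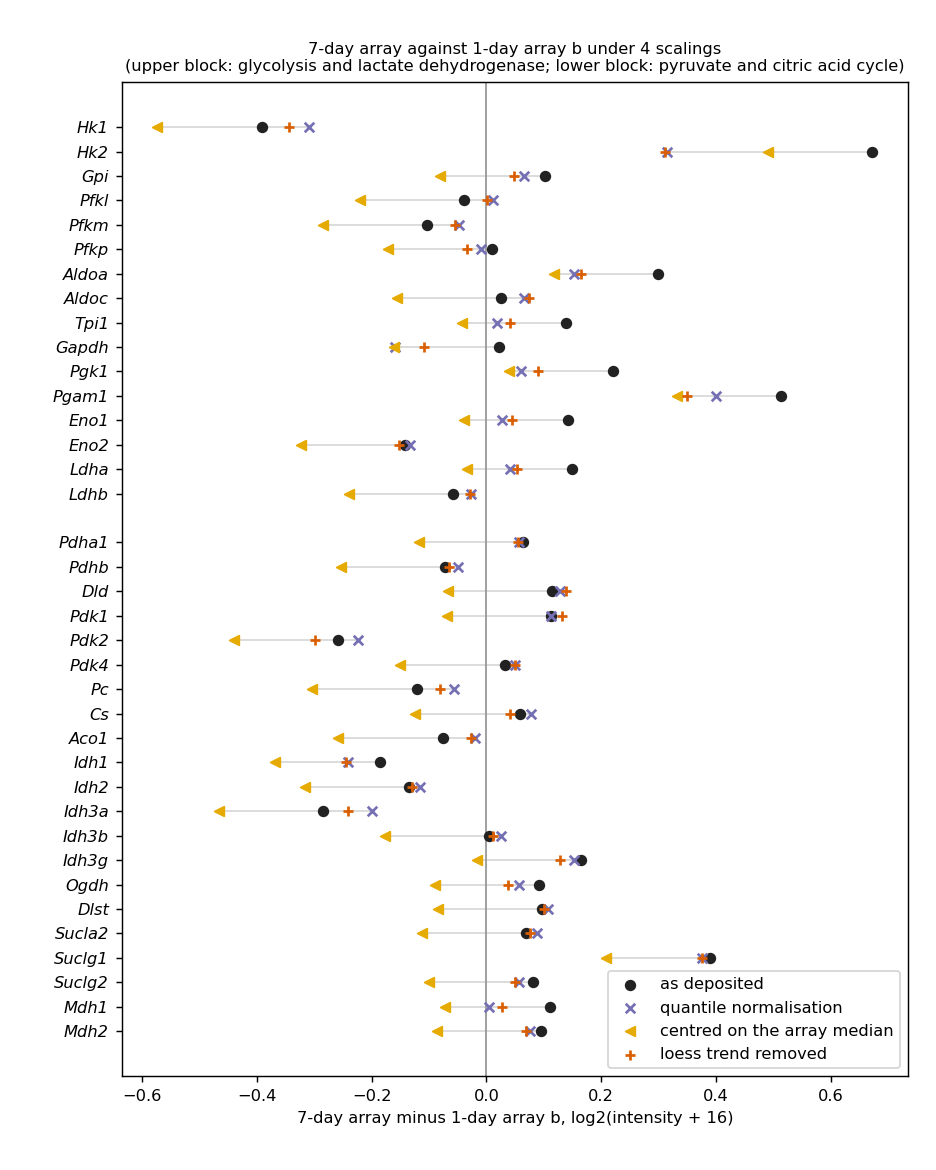
Difference of log2(intensity + 16) at 7 days relative to array b for the 37 measured genes, with the values as deposited and under 3 other scalings. Median centring (triangles) moves each gene down by a like amount, and Pgam1, Suclg1 and Aldoa lie above 0 and Hk1 and Idh3a below 0 in all 4.

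Genes with several kept probe sets gave a further view within the arrays. There were 6 of them, and on array a relative to array b the kept probe sets of each had the same sign, with sizes that differed widely. For Cs they ran from -2.91 to -0.84, for Pfkm from -2.78 to -0.34 and for Pgk1 from -1.54 to -0.02. The position of Pgk1 as a gene equal on both 1-day arrays thus rests on the probe set chosen. Probe sets of these genes below the filter read higher on array a than on array b, by 1.22 for Pfkm, 3.98 for Pgk1 and 6.51 for Cs. Where all probe sets of a gene were averaged, Hk1, Pgk1, Cs, Idh1 and Sucla2 turned from below array b to above it on array a. At 7 days relative to array b, the kept probe sets of Pfkm, Pgk1 and Cs had 1 sign each, and those of Pdha1, Pdk1 and Mdh1 did not. The second probe set of Pgk1 put the 7-day array 0.37 above array b, and that of Pdk1 put it 0.11 below.

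Around the listed genes, a wider list of transporters, other isoenzymes, regulators and neighbouring enzymes had 39 measured genes, of which 25 passed the filter and 0 were called by limma. Relative to array b, 24 of the 39 read higher at 7 days and 15 lower, with a median of 0.09 on the deposited scale. Of all genes with no filter 53.8% read higher, and of the 25 that passed the filter 14 did, where 48.5% of all kept genes did, so these counts were near the background. Succinate dehydrogenase, the cycle enzyme that is also complex II of the respiratory chain, was lower on array a than on array b in all 4 subunits. Of the 9252 kept genes, 4933 were lower there too. Sdha, its flavoprotein subunit, read 12607 on array a, 56701 on array b and 69266 on the 7-day array. Its iron-sulphur subunit Sdhb read 14539, 49777 and 59659, and the membrane anchor Sdhc 15804, 34740 and 36902, while the other anchor Sdhd read 8095, 20089 and 15970. Sdhd was the only subunit below array b at 7 days, at -0.33 on the log2 scale.

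The highest of the wider list against array b at 7 days, among genes that passed the filter, were Me3 and Me1, malic enzymes that turn malate into pyruvate, and Pdhx, which anchors Dld in the pyruvate dehydrogenase complex. Their differences were 0.58, 0.46 and 0.46. Among the lowest were Pfkfb4, a bifunctional enzyme that sets the level of the main activator of phosphofructokinase, and Slc16a1, a lactate and pyruvate carrier of the plasma membrane. Pfkfb4 read 3356 on array a, 9803 on array b and 5557 on the 7-day array, a difference of -0.82 from array b, and Slc16a1 5625, 14868 and 10587, a difference of -0.49. Both lay between the 1-day arrays. Slc2a1, the basal glucose transporter, read 1315, 2906 and 2431, 0.26 below array b.

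Promoters of 37 of the 40 listed genes were matched in the RefSeq table (GRCr8), Pkm, Dlat and Fh among them and Pgk1, Pc and Idh3a not, and the 250 bases before each start were searched on both strands for short motifs. HIF, the hypoxia factor that induces many glycolytic genes, binds a core that reads ACGTG, which is also part of the E-box. That core was found in 8 of 16 promoters of the glycolysis group (50%), in 5 of 21 of the pyruvate and citric acid cycle group (23.8%) and in 16.6% of all 33469 promoters. The GC box GGGCGG was found in 68.8%, 61.9% and 30.5% in that order, and GCGCATG, part of the site of the respiratory factor NRF1, in 18.8%, 0% and 3.26%. AAGGTCA, a site of ERR receptors, was in 0 promoters of either group and in 3.99% of all. The median GC content was 63.4%, 60.4% and 51.2% in the same order, and the part of GC content in these shares was not tested. A match describes letters only. The promoters of 5 genes are shown, namely the genes highest or lowest at 7 days relative to array b (Pgam1, Hk1 and Suclg1) and a gene of each group with a wide gap on array a (Ldha and Dld), with motif matches in capitals.
Pgam1 (chr1:250672902-250673151, plus strand): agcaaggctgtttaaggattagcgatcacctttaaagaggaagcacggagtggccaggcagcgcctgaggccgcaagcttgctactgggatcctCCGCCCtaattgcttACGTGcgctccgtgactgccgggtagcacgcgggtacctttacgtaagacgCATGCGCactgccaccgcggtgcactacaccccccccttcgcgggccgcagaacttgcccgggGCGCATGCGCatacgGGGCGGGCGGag
Hk1 (chr20:30842073-30842322, minus strand): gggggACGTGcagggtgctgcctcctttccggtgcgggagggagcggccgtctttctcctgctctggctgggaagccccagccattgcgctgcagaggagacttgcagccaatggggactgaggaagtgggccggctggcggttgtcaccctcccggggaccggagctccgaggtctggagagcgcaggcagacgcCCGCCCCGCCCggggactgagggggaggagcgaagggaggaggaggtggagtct
Ldha (chr1:106507842-106508091, plus strand): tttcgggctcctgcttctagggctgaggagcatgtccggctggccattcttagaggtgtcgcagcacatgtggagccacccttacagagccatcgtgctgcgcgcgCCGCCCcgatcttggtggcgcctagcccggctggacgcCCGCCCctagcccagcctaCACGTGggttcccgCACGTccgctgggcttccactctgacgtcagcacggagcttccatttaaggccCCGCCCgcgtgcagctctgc
Suclg1 (chr4:106866079-106866328, plus strand): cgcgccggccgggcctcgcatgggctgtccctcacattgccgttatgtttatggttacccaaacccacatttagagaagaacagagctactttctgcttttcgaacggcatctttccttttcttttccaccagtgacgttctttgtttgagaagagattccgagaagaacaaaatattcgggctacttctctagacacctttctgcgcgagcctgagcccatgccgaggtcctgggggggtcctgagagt
Dld (chr6:53652348-53652597, minus strand): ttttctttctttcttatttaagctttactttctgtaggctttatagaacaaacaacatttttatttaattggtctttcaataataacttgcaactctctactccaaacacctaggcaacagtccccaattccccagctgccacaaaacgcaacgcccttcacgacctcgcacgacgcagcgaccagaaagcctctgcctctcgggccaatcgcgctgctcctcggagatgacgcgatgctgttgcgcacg
Pgam1 held matches to the HIF core, the GC box and the NRF1 letters. Ldha held the HIF core and the GC box, and 2 of its 3 HIF core matches are a single E-box read on either strand. Hk1 held the HIF core and the GC box. Suclg1 and Dld held 0 matches to the 4 motifs. Pgam1 and Suclg1, which read highest of their groups among kept genes at 7 days relative to array b, differed in these letters. Ldha and Dld, which were both low on array a, also differed in them. Whether the matches bear on these values was not tested.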

How the data were processed

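Each sample was hybridised to 1 one-colour oligonucleotide array. The deposited values are linear intensities of whole probe sets. Their 2% trimmed means are equal between arrays (2500.66 to 2501.03), which is the only sign here of scaling by the authors; the software is not given in the sources used here. Groups came from the sample titles. Intensities were turned into log2(intensity + 16). Fits excluded 57 control probe sets. These served for Gapdh, which had no other probe set of its own, and for Hk1 beside its gene probe sets. Of 31042 gene probe sets, the 15521 with a mean at or above the median (an intensity of 759) were kept. Genes were named from the platform annotation, updated through Entrez identifiers to RefSeq symbols.

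All 3 arrays entered a limma fit (lmFit, then eBayes with a trend) with Benjamini-Hochberg adjustment. The fit was also run on simulated data, with noise set from the difference between the 7-day array and array b (SD 0.39). The difference between the 1-day arrays had an SD of 1.43, so that run does not tell what the fit could detect here. The prior degrees of freedom were infinite, so each SE is the spread fitted at that intensity. All other values are descriptions. All 37 measured genes were described, Hk2 being below the filter, and those of the wider list were named by rule (succinate dehydrogenase, Slc2a1, and the 3 with the highest and the 3 with the lowest difference from 1-day array b). Members and lists were chosen with earlier results of these data known. The number of arrays limits the precision. R 4.3.3, limma 3.58.1, Python 3.11.15 and matplotlib 3.10.9 were used. Alternatives were pseudocounts of 1 and 64, 3 other scalings, 3 other filters, 2 other ways to choose probe sets, other limma settings, and leaving out each 1-day array.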

Additional observations from a re-analysis of the deposited data

How the results depend on the processing

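Limma called 0 listed genes under each alternative that was run, and at most 1 had an unadjusted p under 0.05. Group medians and their gap moved by less than the spread between the 1-day arrays, except with median centring. That spread is wide because array a stood apart, so large changes can stay within it. Against the average of the 1-day arrays, the pyruvate and citric acid cycle median went from 0.73 to 0.06 without array a. The gap went from 0.50 to 0.0006. Median centring took the medians of array a relative to array b to -1.76 (glycolysis) and -2.93 (pyruvate and citric acid cycle). It took that of all kept genes to -1.49 and left the gap at -1.17. Counts above both 1-day arrays became 3 and 1 with that centring, and 5 for glycolysis with the loess trend removed. Counts below both, 1 and 2 as deposited, were 0 and 0 with centring, 0 and 1 with quantile normalisation and also with loess, and 2 for glycolysis with the mean of all probe sets. That mean also took Pgk1 from 0.22 to 1.42 above array b, through a dim probe set that read 4.77 on array b. Without array a or b, 4 to 5 glycolysis genes and 3 to 7 of the other group read below the array that was left. No paired analysis was possible because the groups share only the letter a. Leaving out Gapdh was an alternative chosen after seeing the data. Depth has no counterpart here, and dim genes such as Hk2, and Pdk4 on array a, are limited by signal.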
